A study of Homo sapiens with 24 samples.

Results

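The genes of the eukaryotic translation initiation factors were followed in 4 human multiple myeloma cell lines in which the transcription factor gene IRF4 was knocked down. Members were chosen by symbol, as genes named EIF followed by a digit from 1 to 6, without the EIF2AK kinase genes, and with a mean of at least 1 TPM over the 24 libraries. TPM, a length-scaled read share, corrects for gene length and library size, so it can be compared between genes within a library. Of 52 such symbols 44 reached the minimum, out of 25341 named genes in the table and 15113 genes tested, and all 44 were among the tested genes. They comprise 3 subunit genes of eIF2, 5 of eIF2B, 12 of eIF3, 13 genes of the eIF4 group and 11 other factors. EIF5A2, with a mean of 1.44 TPM, stood just inside the minimum, and EIF5AL1 (0.838 TPM) and EIF4EBP3 (0.625 TPM) just outside. The next member up was EIF4E3, with 10.5 TPM. EIF5A2 and EIF4E3 reached the minimum and the filter of the test through the MM1 lines, so a difference between lines was built into their choice.

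The list has gaps. EIF4A1, the main helicase gene of the eIF4F complex, is listed at 0 in all 24 libraries, and its read-through neighbour SENP3-EIF4A1 at or below 0.241 TPM. EIF3C is listed at a mean of 0.0199 TPM and its near-identical copy EIF3CL at 0 in every library. No statement on these genes is made here. EIF5AL1 is a near-identical copy of EIF5A, so the split of reads between this pair is uncertain.

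Initiation begins when eIF2, bound to GTP, delivers the initiator methionyl-tRNA to the small ribosomal subunit, and ends when the large subunit joins at the start codon. eIF2B reloads eIF2 with GTP and is blocked when the alpha subunit of eIF2 is phosphorylated, the switch of the integrated stress response. eIF3 is a scaffold on the small subunit, and eIF4F, made of the cap-binding protein eIF4E, the scaffold eIF4G and the helicase eIF4A, brings in capped mRNA under the control of the 4E-binding proteins, which the kinase mTORC1 inactivates. Plasma cells and myeloma cells secrete large amounts of antibody protein and are known for a heavy load on this machinery.

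MM1R and MM1S are sublines of 1 myeloma line, resistant and sensitive to glucocorticoid, and KMS-12-BM and KMS-12-PE are lines from bone marrow and pleural effusion of 1 donor, so the 4 lines stand for 2 origins. Each line gave 3 libraries of total RNA from cells electroporated with a pool of siRNAs against IRF4 and collected after 48 hours (siIRF4), and 3 libraries of control cells (CTRL) that the labels describe as DMSO at 0 hours. All cells grew in RPMI medium with serum. The labels name no control siRNA, so the loss of IRF4, the delivery of siRNA by electroporation, DMSO and hours in culture differ together between siIRF4 and CTRL and cannot be told apart. Nothing in the labels says that the 3 libraries came from separate cultures, so the p-values measure the spread between these libraries, which may be technical. In these bulk RNA samples, a change in the share of cells that express a gene and a change in RNA per cell cannot be told apart.

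IRF4, the targeted gene, fell in every line (limma adjusted p from 5.6e-11 to 5.8e-05). It stood at 376, 365 and 399 TPM in MM1R CTRL and at 259.9, 299 and 314 TPM in MM1R siIRF4. Its mean changed by -23.5% in MM1R and -50.4% in MM1S, and by -38.4% in the line KMS-12-BM and -52.6% in the line KMS-12-PE, with no overlap between the groups of a line and an exact two-sided permutation p of 0.1 in each, the smallest that 3 against 3 allow. Libraries held between 17.3 and 27.4 M recovered reads. The 9 plasma cell markers summed to 12587 to 21752 TPM in the groups of the MM1 lines and to 1507 to 4609 TPM in those of the KMS-12 lines. IGJ and MZB1 made up most of the sums in the MM1 lines, and in MM1R IGJ had a mean of 11407 TPM in CTRL and 14926 TPM in siIRF4. The means of POU2AF1, PRDM1, TNFRSF17 and XBP1 were lower in siIRF4 than in CTRL in each of the 4 lines. The other plasma cell markers did not all fall. Higher means in siIRF4 were seen for CD38, IGJ and MZB1 in MM1R and for IGJ and MZB1 in MM1S. In KMS-12-BM the means of IGJ, SDC1 and SLAMF7 were higher in siIRF4. The 5 stromal markers summed to at most 0.853 TPM in the groups of KMS-12-BM and of MM1R, where COL3A1 and LUM were at or near 0. They summed to 84.1 TPM in MM1S CTRL, 72.8 TPM in MM1S siIRF4, 73.7 TPM in CTRL of KMS-12-PE and 23.7 TPM in siIRF4 of that line. The 5 myeloid markers together stood at 53.4 TPM in CTRL and 129 TPM in siIRF4 of MM1R. In the same order they stood at 153 and 153 TPM in MM1S, 17.4 and 16.6 TPM in KMS-12-BM and 167 and 47.8 TPM in KMS-12-PE. LYZ was at or below 0.176 TPM in every group. In MM1R S100A9 stood at 24.8 and 94.7 TPM, CD68 at 28.5 and 34.5 TPM and S100A8 at 0 in both. The 5 epithelial markers summed to 5.87 and 4.33 TPM in MM1R and 57.3 and 39.5 TPM in MM1S. In KMS-12-BM they summed to 213 and 221 TPM and in KMS-12-PE to 187 and 157 TPM. The highest sums were 41.7 TPM for the 6 T and NK markers (KMS-12-PE siIRF4) and 26.0 TPM for the 4 erythroid markers (MM1R CTRL). The part of these differences in the results on initiation factors was not tested.

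Across the family, siIRF4 was accompanied by small changes in both directions, with more members lower than higher. On average over the 4 lines 10 of 44 members rose and 24 fell (limma on log2(TPM + 1), adjusted p under 0.05). Of all genes tested 33.1% rose and 26.5% fell. The median log2 change was -0.072 over the members and 0.024 over all genes tested. The largest average fall was in EIF4EBP1 (-0.34) and the largest rise in EIF3L (0.21), so every average change of a member was well under a factor of 2 in TPM.

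The counts by line follow. In MM1R 8 members rose and 18 fell, where 25.0% and 21.2% of all genes did. In MM1S 12 rose and 19 fell, against 29.1% and 21.1% of all genes. In KMS-12-BM 1 rose and 8 fell, against 11.4% and 6.09%. In KMS-12-PE 1 rose and 24 fell, against 15.9% and 22.2%. There median-of-ratios scaling gave 2 higher and 17 lower, and a limma voom fit of the recovered reads 5 and 18. Leaving out 1 library at a time gave 17 to 25 lower in that line. The KMS-12-BM count is the least firm: 4 or 5 members fell without KMS-12-BM CTRL library 1, CTRL library 2 or siIRF4 library 1, and median-of-ratios scaling gave 0 higher and 12 lower. EIF1, EIF2B3, EIF2S2, EIF3B, EIF4EBP1 and EIF4G1 fell in all 4 lines. EIF2B1, EIF2B4, EIF2D and EIF4ENIF1 rose in at least 1 line and fell in another. By the libraries alone, siIRF4 lay wholly above CTRL for 10 members and wholly below for 19 in MM1R (29.4% and 24.4% of all genes), and for 12 and 20 in MM1S (32.4% and 22.6%). These counts were 4 and 14 in KMS-12-BM (22.0% and 12.3%) and 2 and 25 in KMS-12-PE (19.7% and 27.7%). The colour map of log2 changes shows both kinds of member.

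**Figure D1:**
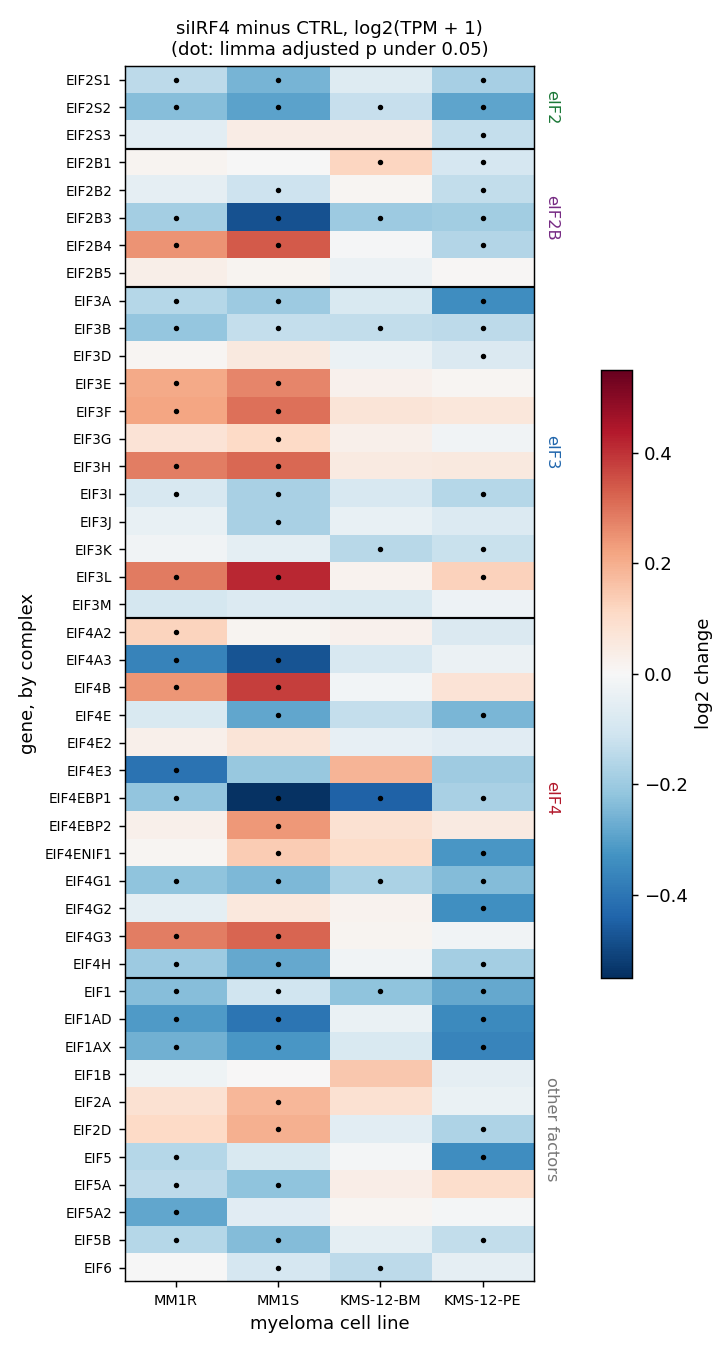
Log2 change from CTRL to siIRF4 of each of the 44 initiation factor genes (vertical axis, grouped by complex) in each myeloma line (horizontal axis), as differences of mean log2(TPM + 1) over 3 against 3 libraries. Dots mark a limma adjusted p under 0.05: EIF2S2, EIF2B3 and EIF3B carry a dot on blue in all 4 lines, while EIF2B4, EIF3E, EIF3F, EIF3H, EIF4B and EIF4G3 carry dots on red in the MM1 lines and none on red in the KMS-12 lines.

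Of the 3 eIF2 subunit genes, the alpha and beta subunits fell and the gamma subunit did not pass the test on average. EIF2S2, the beta subunit, which contacts the initiator tRNA and eIF5, stood at 233, 227 and 219 TPM in CTRL and 182, 186 and 185 TPM in siIRF4 of MM1S. In KMS-12-PE it stood at 283, 286 and 304 TPM in CTRL and 243, 241 and 229.6 TPM in siIRF4. The groups did not overlap in any of the 4 lines, and the log2 change was -0.24 ± 0.020 (SE, limma adjusted p = 2e-09) on average. It was smallest in KMS-12-BM, at -0.13 ± 0.040 with adjusted p = 0.0314.

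EIF2S1 encodes the alpha subunit, the one that stress kinases phosphorylate. It stood at 69.6, 65.4 and 62.8 TPM in CTRL and 53, 57.1 and 54.8 TPM in siIRF4 of MM1S, and at 139, 139 and 137 TPM in CTRL and 125, 133 and 137 TPM in siIRF4 of KMS-12-BM, the line with the highest level. In MM1S the groups were apart, and in KMS-12-BM the highest siIRF4 library lay above the lowest CTRL library. Its average change was -0.16 ± 0.021 (SE, limma adjusted p = 5.5e-07), with falls called in MM1R (-0.15), MM1S (-0.26) and KMS-12-PE (-0.18) and a change of -0.072 (adjusted p = 0.258) in KMS-12-BM. EIF2S3, the gamma subunit that binds GTP and the tRNA, changed by -0.025 (adjusted p = 0.243) on average and fell in KMS-12-PE (-0.13), where CTRL libraries held 269, 259 and 260.4 TPM and siIRF4 libraries 238, 239 and 244 TPM.

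In eIF2B, the exchange factor of eIF2, the 5 subunit genes went separate ways. EIF2B3, the gamma subunit, fell in all 4 lines, and most in MM1S, from 52.9, 55.1 and 50 TPM to 39, 36.9 and 36.4 TPM. KMS-12-BM had the lowest level, with 28.1, 27.6 and 26.6 TPM in CTRL and 20.7, 25 and 25.8 TPM in siIRF4. Groups were apart in every line, and the average change was -0.26 ± 0.030 (SE, limma adjusted p = 1.6e-07).

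EIF2B4, the delta subunit, moved the other way in the MM1 lines. In MM1R it stood at 59.7, 59.3 and 60.4 TPM in CTRL and 73.9, 69.7 and 70 TPM in siIRF4, and in MM1S at 48, 48.2 and 50.5 TPM in CTRL and 65.3, 61.2 and 59.8 TPM in siIRF4. In KMS-12-PE it was lower after siIRF4, with 68.3, 73 and 69.2 TPM in CTRL and 66, 61.6 and 60 TPM in siIRF4. These groups did not overlap, and the difference between the mean effect in the MM1 lines and that in the KMS-12 lines was 0.38 ± 0.043 (SE, limma adjusted p = 4e-07), the largest among the members in either direction. EIF2B1, the alpha subunit, rose in KMS-12-BM (0.12) and fell in KMS-12-PE (-0.094), its difference between these lines being 0.21 ± 0.050 (SE, limma adjusted p = 0.00394). The rise in KMS-12-BM is the sole one called there for a member, and it was lost with median-of-ratios scaling, at an adjusted p under 0.01, or without siIRF4 library 1 of that line. EIF2B2, the beta subunit, fell by a small amount on average (-0.072, adjusted p = 0.00822). EIF2B5, the epsilon subunit that holds the catalytic site, changed by 0.006 (adjusted p = 0.773), and its 24 libraries lay between 78.0 and 120.4 TPM.

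The 12 eIF3 subunit genes changed in both directions, as did all genes tested, of which 33.1% rose and 26.5% fell on average. On average 5 rose (EIF3E, EIF3F, EIF3G, EIF3H and EIF3L) and 6 fell (EIF3A, EIF3B, EIF3I, EIF3J, EIF3K and EIF3M), while EIF3D changed by -0.012 (adjusted p = 0.524). EIF3G was the weakest of these calls, at 0.048 (adjusted p = 0.0393) on average, and it was lost under several alternatives. The median over the 12 genes was -0.041, between the opposite changes. The summed level of these 12 genes, which do not include EIF3C, was 3573 ± 45.6 TPM in MM1R CTRL and 3640 ± 40.6 TPM in MM1R siIRF4 (mean ± SD, n = 3). In the same order it was 3825 ± 24.8 and 3983 ± 53.1 TPM in MM1S, 4561 ± 11.1 and 4505 ± 49.9 TPM in KMS-12-BM, and 4854 ± 75.0 and 4703 ± 31.8 TPM in KMS-12-PE.

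The rises were largest in the MM1 lines. In the mean effect of the KMS-12 lines EIF3F (0.067) and EIF3L (0.073) rose too, the 2 members called higher there, where 19.3% of all genes were. EIF3L, part of the octameric body of eIF3, stood at 303, 309.8 and 301 TPM in CTRL and 409, 407 and 402 TPM in siIRF4 of MM1S. In MM1R it stood at 251, 236 and 247 TPM in CTRL and 308, 303 and 284 TPM in siIRF4. All siIRF4 libraries of these lines lay above all CTRL libraries, with log2 changes of 0.41 ± 0.038 (SE, limma adjusted p = 1e-08) and 0.29 ± 0.038 (SE, limma adjusted p = 2.2e-06). In KMS-12-PE it rose by 0.13 ± 0.038 (adjusted p = 0.0112), the sole rise of a member called in that line, which was lost without siIRF4 library 1 or 3, in a separate fit of the line and at an adjusted p under 0.01. In KMS-12-BM the change was 0.019 (adjusted p = 0.799).

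EIF3H, an MPN-domain subunit, stood at 281, 264 and 273 TPM in CTRL and 335, 336 and 325 TPM in siIRF4 of MM1R and at 271, 279 and 274 TPM in CTRL and 330.3, 347 and 349 TPM in siIRF4 of MM1S. The CTRL and siIRF4 libraries of each line were apart, with rises of 0.28 ± 0.031 and 0.32 ± 0.031. KMS-12-BM held 629, 633 and 645 TPM in CTRL and 642, 655 and 679 TPM in siIRF4, groups that overlapped, with a change of 0.051 (adjusted p = 0.287). In KMS-12-PE it stood at 823, 860.2 and 850.5 TPM in CTRL and 898, 861 and 872 TPM in siIRF4, groups that were apart, with a change of 0.054 (adjusted p = 0.18).

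EIF3F, the other MPN-domain subunit, stood at 303, 304 and 315 TPM in CTRL and 381, 379.7 and 378 TPM in siIRF4 of MM1S. It rose by 0.22 ± 0.035 in MM1R and 0.30 ± 0.035 in MM1S, and changed by 0.07 (adjusted p = 0.188) in KMS-12-BM and 0.064 (adjusted p = 0.166) in KMS-12-PE. EIF3E, also known as INT6, stood at 208, 182 and 188 TPM in CTRL and 233, 226 and 210.0 TPM in siIRF4 of MM1R, and at 865, 867 and 889.7 TPM in CTRL and 889, 889 and 889.6 TPM in siIRF4 of KMS-12-BM. The MM1R groups were apart and those of KMS-12-BM overlapped. EIF3E rose by 0.21 ± 0.046 in MM1R and by 0.27 ± 0.046 in MM1S.

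The effect of siIRF4 was larger in the MM1 than in the KMS-12 lines for EIF3L (difference 0.28 ± 0.038), EIF3H (0.25 ± 0.031), EIF3E (0.22 ± 0.046) and EIF3F (0.19 ± 0.035), with limma adjusted p = 3.7e-06, 1.1e-06, 0.00054 and 0.00011. EIF3D and EIF3K also passed this test, with differences of 0.09 and 0.10, which median-of-ratios scaling ended. The shares that follow are a description with no test, since the grouping was made after the values were seen. They are shares of the summed TPM of the 12 eIF3 members, without EIF3C. EIF3E, EIF3F, EIF3H and EIF3L together held 27.5% ± 0.420 in MM1R CTRL and 32.1% ± 0.556 in MM1R siIRF4 (mean ± SD, n = 3). In MM1S the share was 30.7% ± 0.0374 in CTRL and 37.0% ± 0.197 in siIRF4. It was 47.6% ± 0.732 and 49.5% ± 0.630 in KMS-12-BM, and 41.3% ± 0.224 and 44.0% ± 0.643 in KMS-12-PE. The share was thus higher in siIRF4 in each line, and the MM1 lines started from the lower shares.

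**Figure D2:**
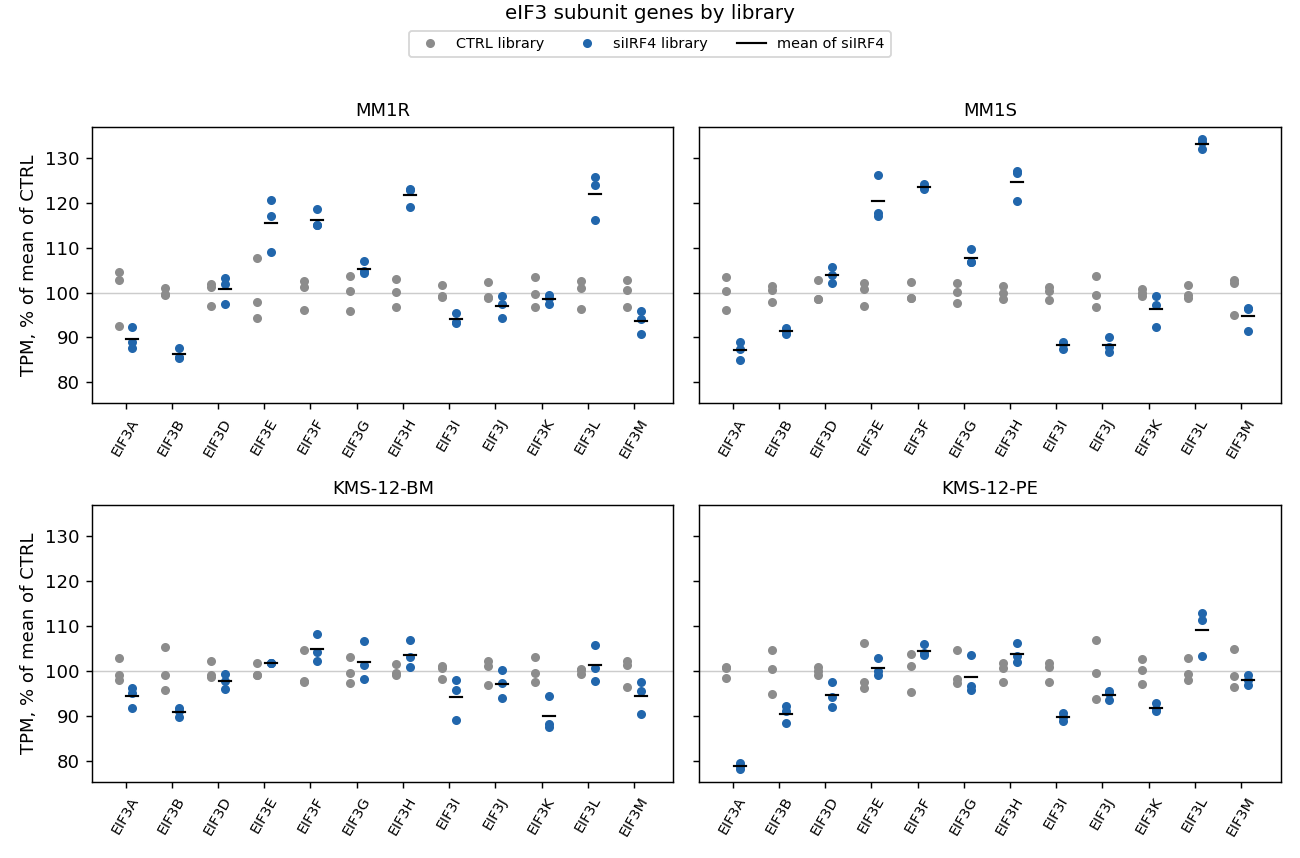
TPM of each eIF3 subunit gene (horizontal axis) in single libraries of each line, as a percentage of the mean of the 3 CTRL libraries of that line (vertical axis), with grey points for CTRL, blue points for siIRF4 and black lines for the siIRF4 mean. In MM1R and MM1S the siIRF4 points of EIF3E, EIF3F, EIF3H and EIF3L lie above every CTRL point of the same gene and those of EIF3B and EIF3I below, while in KMS-12-PE the lowest points are those of EIF3A.

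The falling eIF3 subunits included the scaffold of the complex. EIF3A, its largest subunit, stood at 196, 201 and 201 TPM in CTRL and 155, 158 and 157 TPM in siIRF4 of KMS-12-PE. In MM1S it stood at 317, 294 and 307 TPM in CTRL and 272, 267 and 260.4 TPM in siIRF4. The groups were apart in all 4 lines, and EIF3A changed by -0.34 ± 0.039 in KMS-12-PE, -0.20 ± 0.039 in MM1S and -0.16 ± 0.039 in MM1R. In KMS-12-BM the change was -0.084 (adjusted p = 0.148), and the difference between KMS-12-BM and KMS-12-PE passed the test (0.26, adjusted p = 0.00197).

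EIF3B, an RNA-binding core subunit, fell in every line. In MM1R it went from 464, 465 and 471 TPM to 399.8, 409 and 399 TPM. Over the lines MM1R, MM1S, KMS-12-BM and KMS-12-PE the changes were -0.21, -0.13, -0.14 and -0.14, with groups apart in each. EIF3I, a WD40 subunit bound to EIF3B, fell in MM1R, MM1S and KMS-12-PE (-0.087, -0.18 and -0.16), and in KMS-12-BM its change of -0.087 missed the threshold (adjusted p = 0.0503). EIF3J, a loosely bound subunit, fell in MM1S (-0.18). EIF3K fell in both KMS-12 lines (-0.15 in BM and -0.12 in PE). EIF3M passed the test on average (-0.071, adjusted p = 0.00418) and in no single line.

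Among the 13 genes of the eIF4 group, 3 rose on average (EIF4B, EIF4EBP2 and EIF4G3) and 7 fell (EIF4A3, EIF4E, EIF4E3, EIF4EBP1, EIF4G1, EIF4G2 and EIF4H). Their median was -0.079, and of all genes tested 33.1% rose and 26.5% fell. Within this group, the scaffolds, the helicase cofactors and the 4E-binding proteins each held members that rose and members that fell.

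EIF4E encodes the cap-binding subunit of eIF4F. It stood at 42.9, 41.4 and 39.4 TPM in CTRL and 33.7, 34.4 and 32.8 TPM in siIRF4 of MM1S, and at 64.4, 65.1 and 72 TPM in CTRL and 55.2, 57.1 and 56.2 TPM in siIRF4 of KMS-12-PE. Neither pair of groups overlapped. EIF4E changed by -0.19 ± 0.024 (SE, limma adjusted p = 7.2e-07) on average, and by -0.28 in MM1S and -0.25 in KMS-12-PE, with changes of -0.084 (adjusted p = 0.161) in MM1R and -0.13 (adjusted p = 0.0667) in KMS-12-BM. Its paralog EIF4E2, also known as 4EHP, which binds the cap without eIF4G, changed by -0.0028 (adjusted p = 0.913).

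EIF4E3, a further eIF4E paralog, reached 1 TPM only in the MM1 lines. It stood at 22.8, 22.2 and 21.4 TPM in CTRL and 16.2, 16.2 and 17.1 TPM in siIRF4 of MM1R, and at 25.4, 23 and 23.2 TPM in CTRL and 21, 20.4 and 20.2 TPM in siIRF4 of MM1S. The groups of each line were apart, with a fall of -0.40 ± 0.087 (SE, limma adjusted p = 0.00061) in MM1R and a change of -0.21 (adjusted p = 0.051) in MM1S. In KMS-12-BM it stood at 0.157, 0.0687 and 0.0411 TPM in CTRL and 0.329, 0.406 and 0.0154 TPM in siIRF4, from 10, 5 and 3 reads and 25, 23 and 1 reads. In KMS-12-PE it stood at 0.159, 0.196 and 0.235 TPM in CTRL and 0.0174, 0.0402 and 0.0745 TPM in siIRF4, from 10, 12 and 15 reads and 1, 3 and 5 reads. At these depths, where 3 reads are worth between 0.0395 and 0.0530 TPM, the KMS-12 values carry a large counting error. The lower siIRF4 values in KMS-12-PE (change -0.20, adjusted p = 0.0803) stood beside a stromal marker sum of 73.7 TPM in CTRL and 23.7 TPM in siIRF4 of that line, whose part in them was not tested. On the log2(TPM + 1) scale the effect differed between MM1 and KMS-12 lines by -0.30 ± 0.087, a difference that was lost with a pseudocount of 0.1 and turned positive (0.28) in a fit of the recovered reads.

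EIF4EBP1, which encodes the translation repressor 4E-BP1, showed the largest average fall of the family. It stood at 123, 136 and 137 TPM in CTRL and 91.9, 88.4 and 90.3 TPM in siIRF4 of MM1S and at 230.4, 239 and 226 TPM in CTRL and 149, 175 and 188 TPM in siIRF4 of KMS-12-BM. The groups were apart in all 4 lines. EIF4EBP1 changed by -0.34 ± 0.034 (SE, limma adjusted p = 1.6e-08) on average, by -0.54 ± 0.067 in MM1S and -0.44 ± 0.067 in KMS-12-BM. In MM1R the change was -0.22 ± 0.067 and in KMS-12-PE it was -0.18 ± 0.067. The fall in KMS-12-BM was larger than that in KMS-12-PE (difference -0.27, adjusted p = 0.0474). Its paralog EIF4EBP2 rose in MM1S, from 68.5, 69 and 71.1 TPM to 87.6, 80 and 79.1 TPM, and by 0.10 (adjusted p = 0.00171) on average. EIF4ENIF1, which encodes the eIF4E-binding protein 4E-T, rose in MM1S (0.14) and fell in KMS-12-PE (-0.32), where it stood at 18.4, 18.4 and 17.4 TPM in CTRL and 14.3, 14 and 14.5 TPM in siIRF4.

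The 3 scaffold genes behaved differently from each other. EIF4G1, the main eIF4G, fell in all 4 lines, for instance from 408, 379 and 427 TPM to 338, 349.6 and 351 TPM in MM1R. Its changes were -0.22 in MM1R and -0.25 in MM1S, against -0.17 in the bone marrow and -0.24 in the effusion line of KMS-12, and the groups of each line were apart. EIF4G3, its paralog, was far less abundant and stood at 16.7, 15.9 and 15.7 TPM in CTRL and 22.2, 20.3 and 18.8 TPM in siIRF4 of MM1S, and at 19.7, 18.4 and 19.5 TPM in CTRL and 24.9, 23.6 and 22.2 TPM in siIRF4 of MM1R. EIF4G3 rose in these lines (0.32 ± 0.060 and 0.28 ± 0.060) and changed by 0.015 (adjusted p = 0.919) in KMS-12-BM and -0.02 (adjusted p = 0.852) in KMS-12-PE. EIF4G2, also known as DAP5, which lacks the eIF4E-binding site, fell in KMS-12-PE, where it stood at 796, 795 and 805 TPM in CTRL and 629, 621 and 645 TPM in siIRF4. That change was -0.34 ± 0.034 (SE, limma adjusted p = 8.1e-08), and those of the other lines lay between -0.055 and 0.058 with adjusted p from 0.166 to 0.773.

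The helicase genes and their cofactors also diverged. EIF4A3, which despite its name is the helicase of the exon junction complex laid down at splicing, stood at 180.2, 187 and 183 TPM in CTRL and 131, 129 and 135 TPM in siIRF4 of MM1S. In MM1R it stood at 163, 153 and 166 TPM in CTRL and 119.6, 126 and 127 TPM in siIRF4. KMS-12-PE held 267, 292 and 267 TPM in CTRL and 261, 279 and 268 TPM in siIRF4, groups that overlapped. The falls in MM1S (-0.48 ± 0.038) and MM1R (-0.37 ± 0.038) stood against -0.09 in KMS-12-BM and -0.033 for KMS-12-PE, with a difference of -0.36 ± 0.038 (SE, limma adjusted p = 1.3e-07) between the origins.

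EIF4B, an RNA-binding cofactor that stimulates the eIF4A helicase, stood at 433, 394 and 399.6 TPM in CTRL and 533, 524 and 541 TPM in siIRF4 of MM1S. It stood at 356, 340.4 and 356 TPM in CTRL and 422, 415 and 410.0 TPM in siIRF4 of MM1R. No CTRL library of these lines reached a siIRF4 library, and EIF4B rose by 0.38 ± 0.036 and 0.24 ± 0.036, against -0.013 (adjusted p = 0.869) in KMS-12-BM and 0.075 (adjusted p = 0.111) in KMS-12-PE. EIF4H, a smaller cofactor of eIF4A related to EIF4B, fell instead, from 303, 296 and 294 TPM to 252, 242 and 241 TPM in MM1S (-0.28), and also in MM1R (-0.20) and KMS-12-PE (-0.19). EIF4A2, the paralog of EIF4A1, rose in MM1R (0.12, adjusted p = 0.0191), with CTRL libraries at 708, 613 and 667 TPM and siIRF4 libraries at 766, 718 and 679 TPM, which overlapped.

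Of the 11 other factors 1 rose on average (EIF2A) and 7 fell (EIF1, EIF1AD, EIF1AX, EIF5, EIF5A, EIF5B and EIF6). Among all genes tested 33.1% rose and 26.5% fell. EIF1 and EIF1AX, which keep the scanning ribosome open until it meets the start codon, were both lower. EIF1 stood at 868, 942 and 889.6 TPM in CTRL and 729, 758 and 732 TPM in siIRF4 of KMS-12-PE, and at 777, 797 and 831 TPM in CTRL and 705, 659 and 698 TPM in siIRF4 of KMS-12-BM. Its groups were apart in all 4 lines, and it changed by -0.21 ± 0.019 (SE, limma adjusted p = 4.3e-09) on average. EIF1B, a paralog of EIF1, changed by 0.02 (adjusted p = 0.533).

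EIF1AX stood at 158, 160.1 and 167 TPM in CTRL and 126, 123 and 127 TPM in siIRF4 of KMS-12-PE and at 96.2, 92 and 92.4 TPM in CTRL and 75.4, 76.4 and 72.5 TPM in siIRF4 of MM1S. It changed by -0.36 ± 0.040 and -0.32 ± 0.040 in these lines and by -0.26 in MM1R. In KMS-12-BM the groups were apart as well, yet the change of -0.085 did not pass the test (adjusted p = 0.155). EIF1AD, which carries an eIF1A-like domain, fell in the same 3 lines, and in MM1S went from 40.8, 39.2 and 39.4 TPM to 29.4, 29.9 and 30.3 TPM (-0.40).

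EIF5 promotes GTP hydrolysis by eIF2 at the start codon. It stood at 187, 193 and 195 TPM in CTRL and 153, 149.7 and 149.5 TPM in siIRF4 of KMS-12-PE, where it changed by -0.34 ± 0.036, and at 138, 136 and 139 TPM in CTRL and 137, 132 and 143 TPM in siIRF4 of KMS-12-BM, where the change was -0.011 (adjusted p = 0.899). The groups were apart in KMS-12-PE and overlapped in KMS-12-BM, and the difference between these lines was 0.33 ± 0.051 (SE, limma adjusted p = 7.5e-05). EIF5B, the GTPase that joins the ribosomal subunits, fell in MM1R (-0.16), MM1S (-0.24) and KMS-12-PE (-0.14). EIF6, which keeps the large subunit apart and acts in its maturation, fell in MM1S (-0.091) and KMS-12-BM (-0.14).

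EIF5A, the hypusine-containing factor that relieves stalled ribosomes, was the most abundant member. It stood at 1227, 1307 and 1306 TPM in CTRL and 1124, 1052 and 1121 TPM in siIRF4 of MM1S, and at 837, 884 and 824 TPM in CTRL and 879, 952 and 891 TPM in siIRF4 of KMS-12-PE. It fell in MM1S (-0.22 ± 0.042) and MM1R (-0.14 ± 0.042), with groups apart, and changed by 0.10 (adjusted p = 0.0724) in KMS-12-PE, where the groups overlapped. In KMS-12-BM it stood at 1019.6, 1014 and 1004 TPM in CTRL and 1039, 1049 and 1029 TPM in siIRF4, with siIRF4 wholly above CTRL and a change of 0.037 (adjusted p = 0.61). The difference between the origins was -0.25 ± 0.042 (SE, limma adjusted p = 4.6e-05). EIF5A2, its paralog, stood at 3.16, 2.89 and 2.42 TPM in CTRL and 1.89, 2.28 and 2.24 TPM in siIRF4 of MM1R, where it changed by -0.28 ± 0.080 (SE, limma adjusted p = 0.00611). In KMS-12-BM CTRL it stood at 0.115, 0 and 0 TPM, and 0 reads allow up to 0.0501 and 0.0499 TPM in the libraries listed at 0, counting error only.

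EIF2A, which can carry initiator tRNA without eIF2, rose in MM1S (0.18), from 104, 102 and 99.2 TPM to 121, 115 and 112 TPM. EIF2D, which acts in recycling and reinitiation, rose in MM1S (0.19) and fell in KMS-12-PE (-0.17). The difference of its effect between the origins was 0.27 ± 0.061 (SE, limma adjusted p = 0.00117).

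The size of the response differed between origins for 19 members. In 14 the change was more positive in the MM1 lines and in 5 more negative, where 25.0% and 20.0% of all genes passed the same test. The more negative ones were EIF1AD, EIF4A3, EIF4H, EIF5A and EIF4E3, the last of which rests on 1 to 25 reads per KMS-12 library and turned positive in the voom fit. Median-of-ratios scaling gave 11 more positive and 5 more negative, and the voom fit 10 and 6. The median difference between origins was 0.036 over the members and 0.033 over all genes tested. Between the sister lines MM1R and MM1S 0 of 44 members passed the limma test, where 1.14% of all genes were higher and 1.33% lower, and a limma voom fit of the recovered reads gave 1 higher and 1 lower. Between KMS-12-BM and KMS-12-PE 11 members were more positive in KMS-12-BM and 1 more negative, against 15.9% and 7.11% of all genes. Median-of-ratios scaling gave 8 and 3 there, and the voom fit 7 and 3. The median difference was 0.064 over the members and 0.063 over all genes tested. Leaving aside EIF4E3, with its few reads in both lines, the largest differences between KMS-12-BM and KMS-12-PE were EIF4ENIF1 (0.42), EIF4G2 (0.36) and EIF5 (0.33). The fall of IRF4 itself differed in the same limma tests. It was smaller in the MM1 than in the KMS-12 lines (difference 0.19, adjusted p = 0.0273). It was also smaller in KMS-12-BM than in KMS-12-PE (0.37, adjusted p = 0.0067) and in MM1R than in MM1S (0.62, adjusted p = 0.00091). Its part in the differences between members was not tested.

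The start of a transcript bears on its own translation: mRNAs of ribosomal proteins and elongation factors begin with a C followed by a run of pyrimidines, the terminal oligopyrimidine (TOP) motif, through which mTORC1 and LARP1 act. A start was counted as TOP-type here when the annotated first base was a C with at least 4 C or T bases directly after it, on the transcribed strand. RefSeq starts on GRCh38.p14 were matched for 37 of 44 members. TOP-type starts were found for 9 of the 37 (24.3%): EIF2A, EIF2D, EIF2S3, EIF3D, EIF3F, EIF3K, EIF3M, EIF4A2 and EIF4B. The share was 7.25% of the 10285 tested genes with a start and 4.07% of all 35116 listed starts. EIF3A, EIF3E, EIF3G, EIF3H, EIF3L, EIF2S2 and EIF4EBP1 were not matched.

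The windows run from 10 bases before to 20 bases from the annotated start, 5′ to 3′, with the pyrimidine run from the first transcribed base in capitals. EIF3F (chr11:7987327-7987356, plus strand) and EIF4B (chr12:53006446-53006475, plus strand) are shown as the TOP-type members that rose in both MM1 lines. EIF3D (chr22:36529147-36529176, minus strand), EIF3K (chr19:38619178-38619207, plus strand), EIF3M (chr11:32583821-32583850, plus strand) and EIF2S3 (chrX:24054946-24054975, plus strand) are shown as TOP-type members that rose in neither, so that the range of such starts can be seen. EIF3B (chr7:2354817-2354846, plus strand), EIF3I (chr1:32222397-32222426, plus strand) and EIF4A3 (chr17:80147109-80147138, minus strand) are shown as members that fell in both MM1 lines and begin with an A.
EIF3F: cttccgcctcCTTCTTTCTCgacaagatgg
EIF4B: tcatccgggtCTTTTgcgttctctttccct
EIF3D: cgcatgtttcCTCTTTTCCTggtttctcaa
EIF3K: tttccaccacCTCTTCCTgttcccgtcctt
EIF3M: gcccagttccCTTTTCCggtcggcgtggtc
EIF2S3: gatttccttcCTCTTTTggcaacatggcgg
EIF3B: tcgcacgcacatggctgggctgtagccgtc
EIF3I: ttccggtcttactcacgttgcggccttcct
EIF4A3: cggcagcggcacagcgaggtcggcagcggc

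Members with a TOP-type start had less negative changes in the MM1 lines than the other matched members, as a description over genes that are not replicates. In the mean effect of MM1R and MM1S, 5 of 9 with such a start rose and 1 fell, with a median log2 change of 0.069. Of the 28 without it 3 rose and 18 fell, with a median of -0.15. Of all genes tested 33.5% rose and 25.1% fell in that mean effect. Over all tested genes the medians were 0.064 for the 746 with a TOP-type start and 0.027 for the 9539 without. In the KMS-12 lines the members' medians were -0.043 and -0.097. Members with runs of equal length differed: EIF3F and EIF3D both have a run of 10 pyrimidines, and their changes in the MM1 lines were 0.26 and 0.033. EIF4B has a run of 5 and changed by 0.31.

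**Figure D3:**
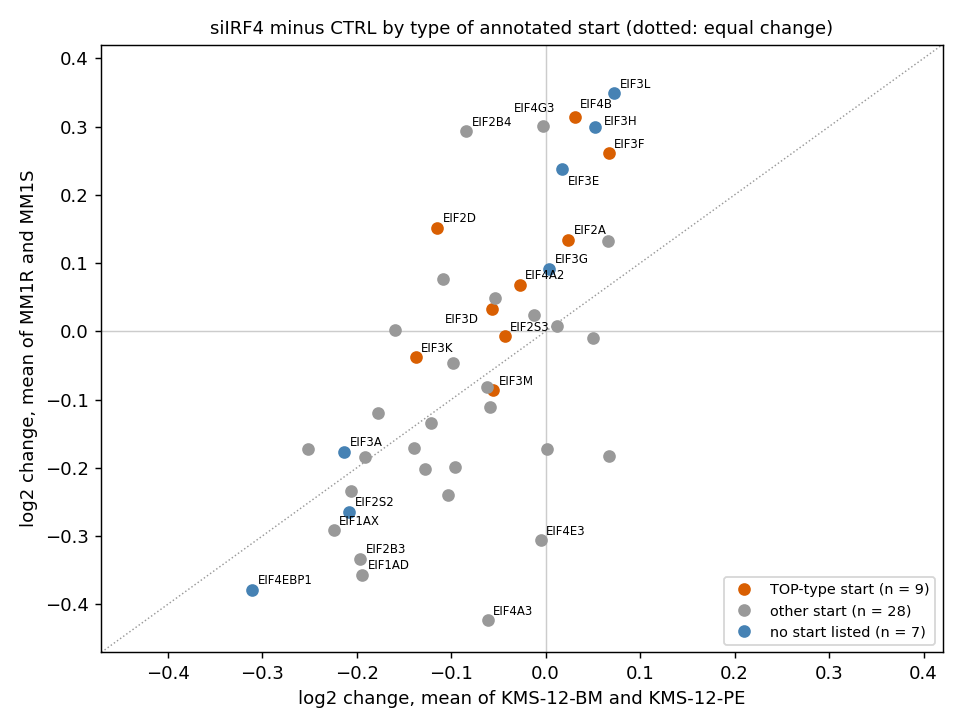
Log2 change of each member from CTRL to siIRF4 in the KMS-12 lines (horizontal axis, mean of KMS-12-BM and KMS-12-PE) and in the MM1 lines (vertical axis, mean of MM1R and MM1S), coloured by the type of its annotated start. Of the 9 orange points with a TOP-type start 8 lie above the dotted line of equal change, where 24 of all 44 members and 8369 of the 15113 genes tested do. The grey points of other starts range in the MM1 lines from EIF4A3 at -0.42 to EIF4G3 at 0.30.

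Further motifs were counted on both strands of the 300 bases from 250 before to 50 after each start. The E-box CACGTG, which MYC can bind, was present for 10 of 37 members (27.0%) and for 12.5% of tested genes. The members with it had a median of -0.18 in the MM1 lines (2 higher, 6 lower) and those without it -0.047 (6 higher, 13 lower). Over all tested genes the medians were 0.037 for the 1286 with the E-box (473 higher, 370 lower) and 0.028 for the 8999 without, so the lower median of the members with it was not seen for the motif in general. A form of the interferon-response element that IRF proteins bind, GAAA repeated after any 2 bases, was present for EIF2A, EIF3K and EIF6 (3 of 37) and for 4.17% of tested genes. The composite element of IRF4 with ETS partners, GGAA and GAAA with any 2 bases between them, was present for EIF4G3 (1 of 37) and for 3.53% of tested genes. A placement of the former on a strand is never a placement of the latter, which differs at the second letter. These are letter matches and say nothing about binding.

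Most members also differed between the lines in the CTRL libraries. Between the MM1 and KMS-12 lines 17 members were higher and 24 lower in MM1, where 40.4% and 44.8% of all genes were. EIF4E3 was the extreme, at 21.4 to 25.4 TPM in the CTRL libraries of the MM1 lines and 0.0411 to 0.235 TPM in those of the KMS-12 lines. EIF5A2 ranged over 2.42 to 3.45 TPM and 0 to 0.115 TPM in the same order. Both genes are among the 17 higher members, and their direction was fixed by the choice of members.

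EIF3E and EIF3H, whose genes both lie on chromosome 8, were lower in the MM1 lines. EIF3E stood at 208, 182 and 188 TPM in MM1R, 294, 291 and 279.9 TPM in MM1S, 641, 634 and 699 TPM in KMS-12-PE and 865, 867 and 889.7 TPM in KMS-12-BM. These 4 groups did not overlap, and MM1 minus KMS-12 was -1.68 ± 0.033 (SE, limma adjusted p = 6.1e-22). EIF3H stood at 281, 264 and 273 TPM in MM1R, 271, 279 and 274 TPM in MM1S, 629, 633 and 645 TPM in KMS-12-BM and 823, 860.2 and 850.5 TPM in KMS-12-PE, with a difference of -1.42 ± 0.022 (SE, limma adjusted p = 1.1e-23). MM1R and MM1S did not differ in EIF3H beyond their spread (-0.0083, adjusted p = 0.845). Of the other factors, EIF5 was lower in the MM1 lines (-1.44), at 53 to 65.1 TPM against 136 to 195 TPM, as was EIF2B1 (-1.03). EIF2D (1.25) and EIF4A2 (0.85) were higher there.

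**Figure D4:**
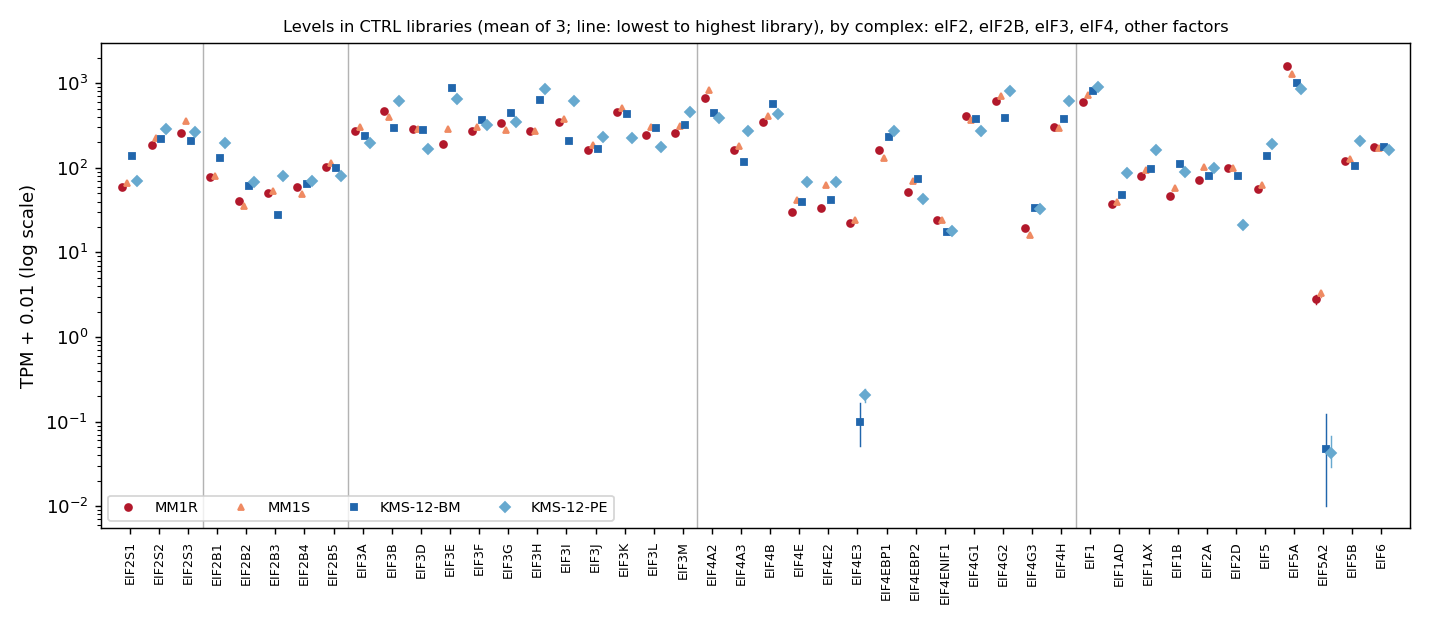
TPM of each member (horizontal axis, by complex) in the CTRL libraries of the 4 lines, on a log axis with 0.01 TPM added, as the mean of 3 libraries with a line from the lowest to the highest. Most members lie between 10 and 1000 TPM in every line, while EIF4E3 and EIF5A2 drop below 0.3 TPM in both KMS-12 lines.

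The lines of 1 origin also differed. In KMS-12-BM against KMS-12-PE 17 members were higher and 23 lower in CTRL, where 37.3% and 40.0% of all genes were. KMS-12-BM held EIF2D at 81.3, 79.7 and 79.8 TPM, KMS-12-PE at 23.9, 20.4 and 19.8 TPM, a difference of 1.87 ± 0.061 (SE, limma adjusted p = 1.7e-17). EIF3I stood at 209, 208 and 203 TPM and 595, 621 and 616 TPM (-1.56), and EIF2B3 at 28.1, 27.6 and 26.6 TPM and 78.2, 77.3 and 84.6 TPM (-1.51). The groups of these 3 genes were far apart. EIF4A3, EIF3B and EIF4G2 were lower in KMS-12-BM (-1.23, -1.07 and -1.05), and EIF2S1 and EIF3K were higher (0.97 and 0.96). Between MM1R and MM1S 8 members were higher and 24 lower in MM1R, against 29.7% and 27.6% of all genes. The largest difference there was in EIF4E2, at 36.1, 32 and 33.1 TPM in MM1R and 65.3, 61.4 and 61.4 TPM in MM1S (-0.87).

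Members tended to differ between lines in the direction of the genes beside them on the chromosome. For each member the median CTRL difference of the 10 nearest tested genes on each side, other members left out, was taken, by gene order on GRCh38.p14. Across the 44 genes, which share their libraries and are not independent replicates, this median and the member's own difference had Pearson's r = 0.53 and Spearman's rho = 0.59 for MM1 minus KMS-12, r = 0.71 and rho = 0.69 for KMS-12-BM minus KMS-12-PE, and r = 0.48 and rho = 0.36 for MM1R minus MM1S. The sign was shared by 29, 34 and 29 of the 44 members. For EIF3E the neighbours' median was -1.32 in MM1 minus KMS-12, for EIF3H -1.04, for EIF5 -1.19 and for EIF2B1 -1.17, beside own values of -1.68, -1.42, -1.44 and -1.03. For EIF4E3 it was 0.16, beside the member's own 4.39. EIF4E3 and EIF5A2, whose direction in MM1 minus KMS-12 was fixed by the choice of members, are included in these correlations and sign counts. The same values were not taken for other tested genes, so whether this is particular to the initiation factors is not known. The cause was not tested.

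**Figure D5:**
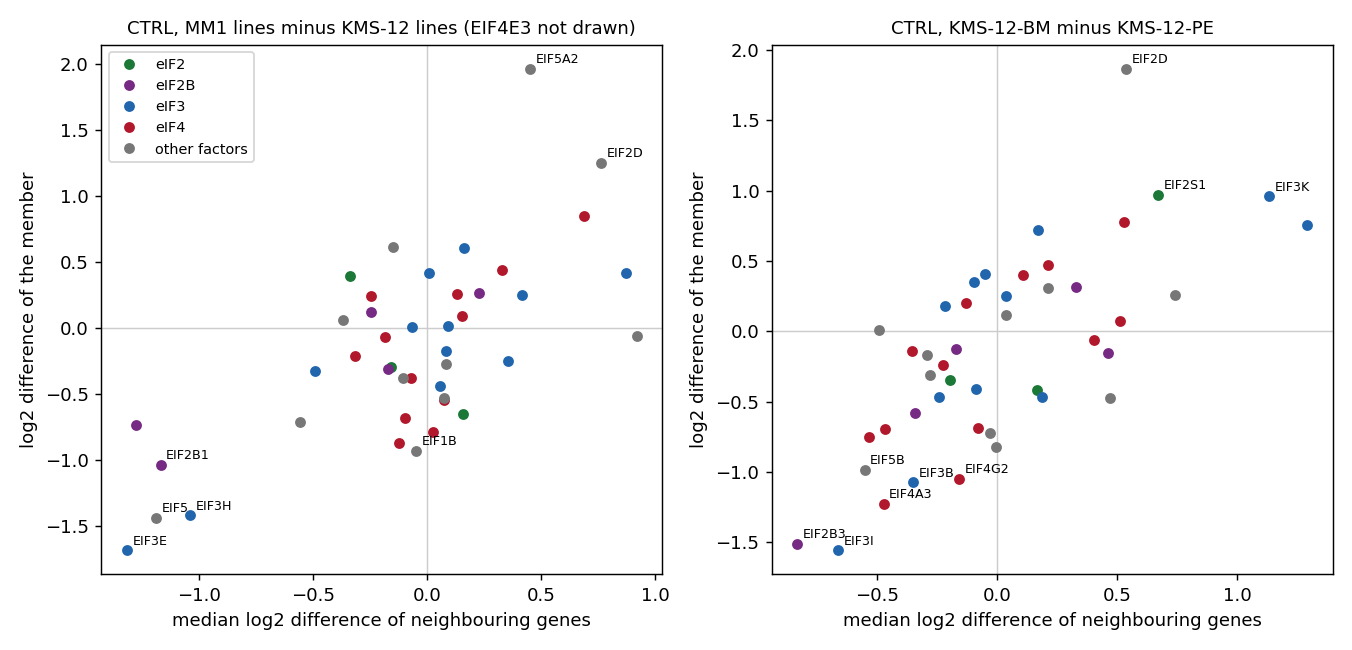
CTRL log2 difference of each member (vertical axis) against the median CTRL log2 difference of its neighbouring genes (horizontal axis), for MM1 minus KMS-12 lines (left, without EIF4E3, whose value of 4.39 lies off the scale) and KMS-12-BM minus KMS-12-PE (right), coloured by complex. EIF3E, EIF3H, EIF5 and EIF2B1 lie at the lower left of the left panel, and EIF2B3, EIF3I and EIF4A3 at the lower left of the right panel.

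Genes that act around the initiation factors gave a mixed picture on average over the lines, read against 33.1% higher and 26.5% lower of all genes. Of 9 genes of the eIF2 alpha kinases and phosphatase, 2 rose and 4 fell (median -0.056). PPP1CA, a catalytic phosphatase subunit, and EIF2AK2, the kinase PKR, were higher (0.15 and 0.14), and PPP1R15A and PPP1R15B, the regulatory subunits, were lower (-0.20 and -0.23). EIF2AK2 was not called in MM1R (0.0097, limma adjusted p = 0.933) or MM1S (-0.085, limma adjusted p = 0.30). Its change was more positive in KMS-12-BM than in KMS-12-PE (difference 0.65 ± 0.091, limma adjusted p = 2.9e-05). ATF4, the transcription factor that eIF2 phosphorylation induces at the level of translation, fell in all 4 lines (-0.24 on average). It stood at 367, 368 and 359.6 TPM in CTRL and 313, 311 and 316 TPM in siIRF4 of MM1S, groups that were apart.

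Around eIF4F, 3 of 12 modulators rose and 5 fell (median 0.00094). PDCD4, an inhibitor of the eIF4A helicase, rose in every line, and in MM1R from 28.3, 27 and 30.9 TPM to 85.6, 77.8 and 73.6 TPM, which is 1.43 ± 0.053 on the log2 scale. In KMS-12-BM the rise was 0.29 from a far higher start of 388, 399 and 409 TPM. PAIP2, which holds off the poly(A)-binding protein, rose (0.23), and PABPC4, a poly(A)-binding protein, and ABCF1, a partner of eIF2, fell (-0.29 and -0.15). Of 14 genes of mTORC1 and its regulators 6 rose and 3 fell (median 0.015). DDIT4 and SESN1, inhibitors of mTORC1 that stress induces, rose by 0.98 and 0.46. RHEB and MLST8, an activator and a subunit of mTORC1, changed by -0.13 and -0.12. For RHEB (difference -0.34, limma adjusted p = 2.5e-06) and MLST8 (-0.13, limma adjusted p = 0.0251) the effect was more negative in the MM1 than in the KMS-12 lines. For DDIT4 it was more positive there (0.25, limma adjusted p = 0.0174). DDIT4 stood at 16.9, 16.4 and 16.5 TPM in CTRL and 43.6, 41.6 and 42.9 TPM in siIRF4 of MM1S.

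All 6 genes of eIF5A hypusination and polyamine synthesis fell on average over the lines (median -0.22). Among them were ODC1, the first enzyme of polyamine synthesis (-0.40), and SMS, spermine synthase (-0.28). Fewer of the 6 were called lower in either KMS-12 line than in either MM1 line. For SMS the effect was more negative in the MM1 lines (difference -0.44, limma adjusted p = 4.9e-08). Its mean effect in the KMS-12 lines was -0.064 (limma adjusted p = 0.109). ODC1 was called lower in each of the 4 lines. ODC1 went from 402, 417 and 423 TPM to 257, 276 and 271 TPM in KMS-12-PE. Of 8 termination and recycling factors 1 rose and 5 fell (median -0.14), with GSPT1 and ETF1, the release factors, lower (-0.26 and -0.20) and GSPT2, the retrogene paralog of GSPT1, higher (0.26). Of the 8 tested genes with an EEF symbol, elongation factors and related genes, 4 rose and 1 fell (median 0.066). EEF1A1 and EEF1G, subunits of the complex that delivers aminoacyl-tRNA and both with classical TOP mRNAs, rose by 0.21 and 0.14, and EEF1E1 fell (-0.24). For EEF1A1 the effect was larger in the MM1 than in the KMS-12 lines, with a difference of 0.27 ± 0.035 (SE, limma adjusted p = 2.2e-06).

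MYC, an activator of many initiation factor genes, rose in the MM1 lines and fell in the KMS-12 lines. It stood at 309, 309 and 325 TPM in CTRL and 448, 428 and 425 TPM in siIRF4 of MM1R, and at 1176, 1135 and 1121 TPM in CTRL and 834, 810.4 and 824 TPM in siIRF4 of KMS-12-BM. The groups were apart in these lines. The changes were 0.46 ± 0.044 and -0.47 ± 0.044, and the difference between the origins was 0.73 ± 0.044 (SE, limma adjusted p = 5.5e-11).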

How the data were processed

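Total RNA of 24 libraries from 4 myeloma cell lines was sequenced. Reads were handled with FastQC, STAR, featureCounts and MultiQC on hg19, per the submitters' processing notes, with versions not given in the sources used here. The authors deposited 1 table of TPM values per gene. Of its 25370 entries, 28 with a date for a symbol and 1 with no name were left out, and 25341 were kept.

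The TPM values were transformed to log2(TPM + 1). The 15113 genes with at least 1 TPM in at least 3 libraries were fitted with limma 3.58.1 in R 4.3.3, with 8 group means over all 24 libraries, a trended and robust prior and Benjamini-Hochberg adjustment over all tested genes per comparison. A gene was called at an adjusted p under 0.05. The fit was tested on simulated data. Whole reads were recovered from the TPM steps for 20484 genes (tolerance 0.02 reads, at least 6 libraries with a value), giving 17.3 to 27.4 M per library, and 14935 genes entered a limma voom fit as an alternative. Python 3.11.15, numpy 2.4.6, pandas 2.3.3 and matplotlib 3.10.9 were used for summaries, starts and plots.

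Every member may be named. Of each related list, up to 2 genes higher and 2 lower with the smallest adjusted p of the average were named, and also IRF4, MYC, ATF4 and DDIT4. The members and lists were chosen with earlier results of these data known. Start sequences and gene order are from RefSeq on GRCh38.p14 and were matched by symbol; no coordinates of the hg19 files were used. Replicate numbers were checked and did not pair the samples.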

Additional observations from a re-analysis of the deposited data

Results flagged for a closer look

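The effect of siIRF4 differed between the MM1 and KMS-12 lines for 19 members (limma, test of the difference itself, adjusted p under 0.05). In log2 units it was more positive in the MM1 lines for EIF2A (0.11), EIF2B4 (0.38), EIF2D (0.27), EIF3D (0.090), EIF3E (0.22), EIF3F (0.19), EIF3H (0.25), EIF3K (0.10), EIF3L (0.28), EIF4B (0.28), EIF4E2 (0.10), EIF4ENIF1 (0.18), EIF4G2 (0.16) and EIF4G3 (0.30). It was more negative there for EIF1AD (-0.16), EIF4A3 (-0.36), EIF4E3 (-0.30), EIF4H (-0.14) and EIF5A (-0.25). In the same test 25.0% of all genes were more positive in the MM1 lines and 20.0% more negative, against 31.8% and 11.4% of the members. The median difference was 0.033 over all genes tested and 0.036 over the members. Each line gave 3 libraries per group, and the EIF4E3 value turned positive in the voom fit of recovered reads. IRF4 itself fell less in the MM1 lines (difference 0.19, limma adjusted p = 0.0273), and its part was not tested.

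Between KMS-12-BM and KMS-12-PE the effect differed for 12 members. It was more positive in KMS-12-BM for EIF1AD (0.31), EIF1AX (0.28), EIF2B1 (0.21), EIF2S2 (0.16), EIF2S3 (0.17), EIF3A (0.26), EIF4E3 (0.38), EIF4ENIF1 (0.42), EIF4G2 (0.36), EIF4H (0.16) and EIF5 (0.33). It was more negative there for EIF4EBP1 (-0.27). In this test 15.9% of all genes were more positive in KMS-12-BM and 7.11% more negative, against 25.0% and 2.27% of the members. The median difference was 0.063 over all genes tested and 0.064 over the members. The EIF4E3 values rest on 1 to 25 reads in the libraries of these lines. IRF4 itself fell less in KMS-12-BM (difference 0.37, limma adjusted p = 0.0067), and its part was not tested.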

How the results depend on the processing

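Of the 34 members called on average, 32 kept call and direction in every alternative run, the exceptions being EIF3G and EIF4E3. Of the 19 called for the difference between MM1 and KMS-12 lines, 14 did, the exceptions being EIF2A, EIF3D, EIF3K, EIF4E2 and EIF4E3. The EIF4E3 difference was 0.28 in the voom fit of recovered reads. In KMS-12-BM, where 1 member was higher and 8 lower, 2 were higher with a minimum mean of 5 TPM and with voom, and 0 with median-of-ratios scaling and at an adjusted p under 0.01. There 4 were lower in a separate fit of the line and 5 at an adjusted p under 0.01. In KMS-12-PE, where 1 was higher, 2 were with median-of-ratios scaling, 0 in a separate fit, 5 with voom and 0 at an adjusted p under 0.01. The 24 members lower in KMS-12-PE became 17 with median-of-ratios scaling and 18 with voom. Leaving out 1 library at a time gave 0 to 2 higher and 4 to 10 lower in KMS-12-BM, and 0 to 2 higher and 17 to 25 lower in KMS-12-PE. With the replicate number as a block, 2 members were higher in either KMS-12 line, and the differences of EIF3D and EIF4E2 between MM1 and KMS-12 lines were lost. Deviations of CTRL and siIRF4 libraries with the same number correlated between -0.088 and 0.086, so the numbers were not taken as pairs. The cause of these shifts was not tested. With 3 libraries per group, genes of few reads carry the largest error.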
